A study of Rattus norvegicus with 4 samples.

Results

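The nylon array used for these rats carried 1185 spots, of which 47 bore the name of an intracellular protein kinase or of a protein that works directly with one. They were chosen by gene name alone. A name had to contain protein kinase, tyrosine kinase, tyrosine-protein kinase, MAP kinase, mitogen-activated or glycogen synthase kinase, and had to be free of receptor, insulin, cyclin, pyruvate, c-fms, 14-3-3 and natriuretic. The RNA came from mesenteric white adipose tissue of female Wistar rats fed chow. Of the 4 rats, 2 received oleoyl-estrone (OE), the oleic acid ester of estrone, at 10 μmol/kg per day by oral gavage in 0.2 ml of sunflower oil. The other 2 received the oil alone, and the tissue of all 4 was taken 48 h after the start. Each rat had its own array, and the arrays are called control 1, control 2, OE 1 and OE 2. The tissue was dissected whole, so that adipocytes, vessels, blood cells and any adjoining lymphoid tissue could contribute to the same RNA.

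The label of intracellular protein kinases held for most of the spots. Of the 47, 42 were kinases or subunits of kinases. The remaining 5 were not kinases: PKI-alpha and PKI-beta are inhibitors of the cAMP-dependent protein kinase (PKA), and beta15, nel homolog 1 and nel homolog 2 are proteins that bind protein kinase C (PKC). The eek spot is named after the Eph family, whose members are cell-surface receptors. The excluded words also removed 18 spots with a kinase term in their name, among them ERK1, whose listed name mentions insulin, and Ctk, which is described there as non-receptor.

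Protein kinases transfer phosphate from ATP to other proteins and thereby switch them on or off. In adipocytes, cAMP frees the catalytic subunit of PKA from its regulatory subunits, of which RII-beta is the typical form of fat, and PKA then phosphorylates hormone-sensitive lipase to release fatty acids. AKT1 and glycogen synthase kinase 3 carry the insulin signal, the MAP kinases carry growth and stress signals, and the Jak kinases carry cytokine signals. Jak3, Lyn and SYK are best known from leukocytes, which also reside in adipose tissue.

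The values below are adjusted intensities, the phosphorimager signal of a spot minus the background of its array, or these divided by the 50th percentile of their array (scaled intensities, in array medians). The percentile was 14 and 9 on control 1 and control 2 and 22 and 17 on OE 1 and OE 2, and values of 4 arrays are given in that order throughout. The background was 60, 54, 61 and 61. A spot is said here to reach the detection limit when its adjusted intensity was 2 times the background of the array or more. Of the 47 kinase spots, 11 reached it on some array, 2 on all 4 arrays (PKC-beta and ERK2) and 36 on none. Of the 43 kinase spots that entered the comparison below, 25.6% reached it on some array and 4.65% on all 4. Among all genes that entered, these shares were 30.9% and 10.8%. By array, the limit was reached by 6 and 3 kinase spots in the control group and by 11 and 6 in the OE group. Of all 1185 spots, 152 and 178 reached it in the control group and 246 and 176 in the OE group. Scaled values under 0.235 array medians were raised to that floor. A spot entered the comparison when both arrays of the control group, or both of the OE group, exceeded the floor, which 43 of the 47 and 922 of all 1185 spots did. The 4 that did not enter, PKC-gamma, the CamK II alpha subunit, CamK kinase and eek, had at most 13 on any array. With 36 spots under the limit on every array, most ratios below are ratios of dim values. Levels of different spots are not compared, since each spot has its own hybridization efficiency.

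Control 2 stood apart from the other 3 arrays in the markers of the cells of the tissue, and OE 2 in those of intestine. The 4 adipocyte markers, FABP4, LPL, HSL and FAS, were all highest on control 2 and had summed adjusted intensities of 3734 and 20261 on the control arrays and 9383 and 8863 on the OE arrays. Most of each sum was FABP4, with 3532, 19033, 8811 and 8512. The 21 spots on the leukocyte list summed to 4417, 680, 7743 and 3181 in the same order. The list was drawn by words in the name and also took a few spots that mark no leukocyte, such as CD36. Of its 21 spots, 18 had their lowest adjusted intensity on control 2, and 7 were at 0 there. These values are unscaled, and control 2 was also the dimmest array, with a median of 9 and 197 of all 1185 spots at 0. After scaling, control 2 was the lowest array for 15 of the 20 listed spots that entered and the highest for 4. Among all genes that entered, it was the lowest for 25.8%. The leukocyte common antigen CD45, which defines leukocytes, had 2038, 71, 3180 and 1319, and the CD3 zeta subunit of T cells had 185, 0, 149 and 68. The 5 intestine markers summed to 27, 13 and 69 on the first 3 arrays and to 4643 on OE 2, and the 4 muscle markers to between 22 and 97. In RNA of whole tissue, fewer cells of a type and less RNA per cell cannot be told apart.

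No shift of the kinases as a group was seen between OE-treated and control rats. Of the 43 that entered, 5 had a ratio of OE to control under 0.5, against 18.3% of all genes that entered, and 6 had a ratio over 1.5, against 18.9%. Either cutoff was passed by 11 kinase spots (25.6%) and by 37.2% of all genes. The shares in each direction were 11.6% and 14% for the kinases. Of the 6 over 1.5, JNK3, the PKA catalytic subunit, Jak3 and wee1 had control values raised to the floor and entered through the OE arrays. Among spots above the floor on all 4 arrays, 4 kinase spots (11.1%) were lower and 2 (5.56%) higher, against 17.4% and 15% of all genes that met this filter. With scaling to the 9 housekeeping spots, 12 kinase spots (27.3%) were lower and 1 (2.27%) higher, against 45.2% and 5.14% of all genes, whose median log2 fold change moved to -0.75. Without scaling 2 (4.44%) were lower and 28 (62.2%) higher, against 3.04% and 50.7%, with a median of all genes of 0.74. The median log2 fold change was 0.07 for the kinases and -0.04 for all genes. Both OE values lay below both controls for 6 kinase spots (14%, background 15.8%) and above both for 7 (16.3%, background 14.1%), and the groups overlapped for the other 30. With limma, 0 of the 43 and 0% of all genes had an adjusted p under 0.05, and the adjusted p of the kinases lay between 0.957 and 0.998. At an unadjusted p under 0.05 there were 2 kinase spots (4.65%), CamK II and nel homolog 2, both lower, against 2.06% of all genes in either direction and 1.19% for lower values. For nel homolog 2, which is not a kinase, both OE values were at or under the floor. It entered through the controls, and its OE values were equal in the fit, so that its p is no measure of a lower value.

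**Figure D1:**
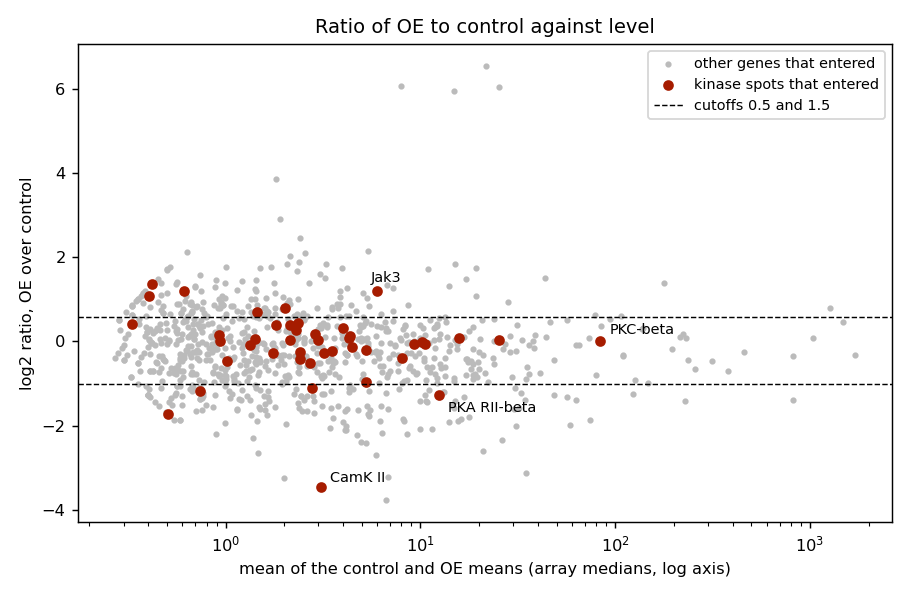
Each point is a gene that entered; the x axis is the mean of the control and OE group means in array medians on a log scale, the y axis the log2 ratio of OE to control, and dashed lines mark ratios of 0.5 and 1.5. Most of the 43 kinase spots lie within the cloud of the other genes, with CamK II lowest among them at a ratio of 0.0912. Jak3, drawn with a control at the floor, and PKA RII-beta are the only ones past the cutoffs that reached the detection limit on any array.

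Among the 11 spots that reached the detection limit, 9 had a ratio between 0.766 and 1.25. For several of these the mean of the controls joined distant values: PKC-beta, PKC-eta, Clk3, CSK and JAK1 had ratios below 1 against control 1 and between 1.7 and 3.74 against control 2. The other 2 were PKA RII-beta, whose ratio under 0.5 turned to over 1 without control 2, and Jak3, whose controls were both under the limit, one of them at 0. The remaining 9 spots past the cutoffs, 4 lower and 5 higher, were under the limit on all 4 arrays.

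**Figure D2:**
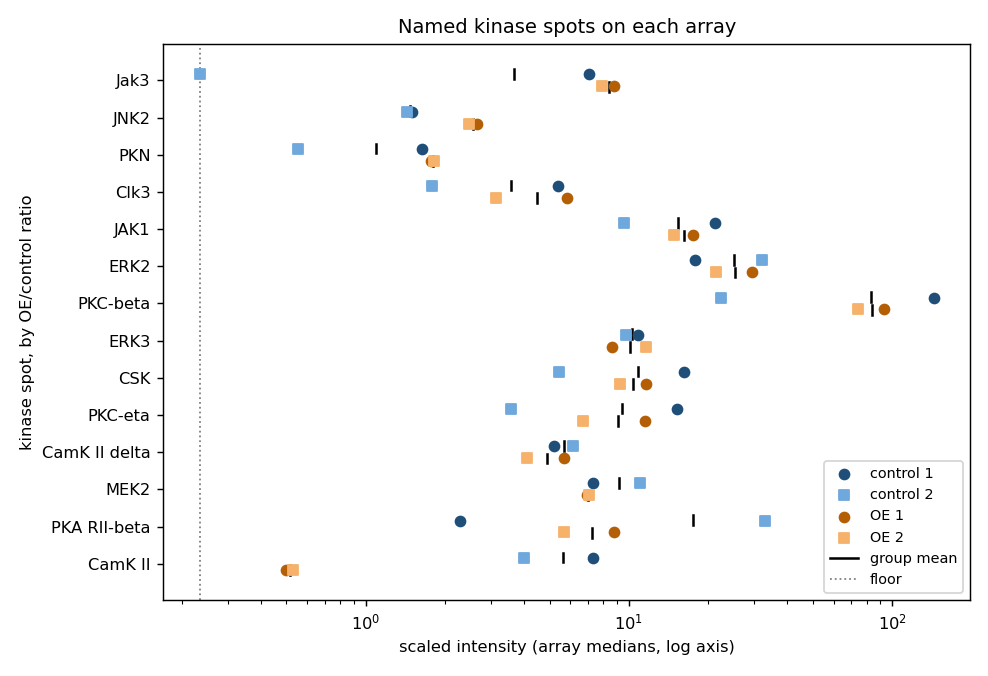
Scaled intensity of 14 kinase spots on each array (x axis, array medians, log scale), ordered by ratio from CamK II at the bottom, with Jak3, for which no fold is given, drawn at the top; circles and squares are single rats, short vertical lines the group means, and the dotted line the floor. The OE arrays lie close together for most spots, while control 1 and control 2 are far apart for PKC-beta, PKC-eta, Jak3 and PKA RII-beta.

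The MAP kinase cascade was represented by 9 spots, all of which entered. Leaving out JNK3, whose controls were under the floor, their ratios ran from 0.766 to 1.73. ERK2, the terminal MAP kinase of growth factor signalling, had adjusted intensities of 250 and 289 on the control arrays and 646 and 366 on the OE arrays, all over the detection limit. In scaled values it had 25.0 ± 10.1 array medians (SD, n = 2) without OE and 25.4 ± 5.54 (SD, n = 2) after OE, which makes a ratio of 1.02. Both scaled OE values lay between the controls, whereas both adjusted OE intensities lay above both controls. The ratio was 1.88 without scaling and 0.64 with scaling to the 9 housekeeping spots, so that it depends on the scaling. ERK3, an atypical relative of ERK2, had 151 and 88 in controls and 190 and 198 in OE-treated rats. Its scaled ratio was 0.986, against 1.62 without scaling and 0.577 with scaling to the 9 housekeeping spots. MEK2, which phosphorylates and activates the ERKs, had 102 and 99 in controls and 153 and 120 in OE-treated rats. Its ratio was 0.766, with both scaled OE values below both controls, but the adjusted intensities before scaling run the other way and gave a ratio of 1.36. MEK1, MEK5 and p38 had ratios of 1.01, 0.859 and 0.908, all under the detection limit.

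The 3 Jun kinases, which respond to stress and cytokines, were under the detection limit on all 4 arrays. JNK2 had adjusted intensities of 21 and 13 in controls and 58 and 42 in OE-treated rats. In scaled values these were 1.5 and 1.44 against 2.64 and 2.47 array medians, so that the groups did not overlap and the replicates of each group were close. Its ratio was 1.73, its log2 fold change 0.79 with a standard error of 0.57, and its adjusted p from limma 0.957. The ratio lay between 1.02 and 2.94 over the 16 alternatives in which JNK2 entered. JNK1 had 48 and 5 in controls and 73 and 36 in OE-treated rats, with overlapping groups. Its ratio of 1.36 was 0.793 against control 1 and 4.89 against control 2. JNK3, the form known from brain, had 3 and 0 in controls, both under the floor, and 15 and 9 in OE-treated rats, so that no fold is given. JNK1 and JNK3 were named after their values were seen.

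Of the 8 spots for PKC and the PKC-related PKN, 7 entered and 5 of these had their lowest scaled value on control 2. PKC-beta, a calcium-dependent PKC abundant in lymphocytes and also made by other cells, had adjusted intensities of 2023 and 202 on the control arrays and 2057 and 1263 on the OE arrays. Its spot is named for both splice forms, beta-I and beta-II. The scaled control mean was 83.5 ± 86.3 array medians (SD, n = 2) and the OE mean 83.9 ± 13.6 (SD, n = 2), a ratio of 1.01. That ratio joined 0.581 against control 1 and 3.74 against control 2, because the controls differed 6.44-fold. With geometric means it was 1.46, and the log2 fold change was 0.55 with a standard error of 1.03. PKC-eta, a PKC that needs no calcium, had 214 and 32 in controls and 252 and 114 in OE-treated rats. Its ratio of 0.964 became 0.594 against control 1 and 2.55 against control 2. Both spots were thus low on the array where the leukocyte markers were low, and the part of leukocyte content in these differences was not tested.

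The other PKC spots stayed under the detection limit. PKC-alpha, PKC-delta and PKC-epsilon had ratios of 1.12, 1.10 and 1.21. PKC-zeta, an atypical form, had scaled values of 3.14 and 3.22 in controls and 2.14 and 2.35 in OE-treated rats. The adjusted intensities, 44 and 29 against 47 and 40, were on average higher in OE-treated rats, so that the direction depends on the scaling. The scaled ratio was 0.705, with the OE arrays below both controls and a log2 fold change of -0.51 (standard error 0.57, limma adjusted p 0.957). PKN, a serine/threonine kinase related to PKC, had adjusted intensities of 23 and 5 in controls and 39 and 31 in OE-treated rats, with a ratio of 1.64. Its OE values lay above both controls, yet against control 1 alone the ratio was 1.09, and with scaling to the 9 housekeeping spots it turned to 0.877.

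The cAMP-dependent kinase had 3 spots, with ratios on both sides of 1. The RII-beta regulatory chain had adjusted intensities of 32 and 296 on the control arrays and 194 and 96 on the OE arrays. Scaled, it had 17.6 ± 21.6 array medians (SD, n = 2) without OE and 7.23 ± 2.24 (SD, n = 2) after OE, which makes a ratio of 0.411. Both OE values lay between the controls, and the ratio was 0.220 against control 2 and 3.16 against control 1. With geometric means it was 0.814, and the log2 fold change was -0.3 with a standard error of 1.36. HSL, the lipase that PKA phosphorylates, had adjusted intensities of 27, 300, 191 and 94 in the same order of arrays, and the 4 adipocyte markers likewise had their highest value on control 2. Whether adipocyte content contributed to the RII-beta ratio was not tested. The RI-alpha chain, a widely expressed regulatory subunit, had 71 and 80 in controls and 64 and 72 in OE-treated rats. After scaling these became 5.07 and 8.89 against 2.91 and 4.24 array medians, a ratio of 0.512 with both OE arrays below both controls and a limma adjusted p of 0.957. Before scaling the groups overlapped, and all 4 values were under the detection limit. The catalytic subunit had at most 18 on any array.

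The 2 PKA inhibitors differed strongly between the control rats, in opposite directions, and were under the detection limit throughout. PKI-alpha had 7, 29, 70 and 29 on control 1, control 2, OE 1 and OE 2. PKI-beta had 95, 2, 66 and 47, with control 1 the highest and control 2 under the floor. Their ratios of OE to control were 1.31 and 0.821, with overlapping groups. The log2 fold change of PKI-alpha was 0.88 (standard error 1.06). That of PKI-beta was 1.19 (standard error 1.64), opposite in direction to its ratio, with control 2 raised to the floor.

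CamK II, the brain-type beta subunit of calcium/calmodulin-dependent kinase II, had the lowest ratio of the kinase spots. Its adjusted intensities were 102 and 36 on the control arrays and 11 and 9 on the OE arrays. In scaled values it had 5.64 ± 2.32 array medians (SD, n = 2) without OE and 0.515 ± 0.0208 (SD, n = 2) after OE, which makes a ratio of 0.0912. The groups did not overlap before or after scaling, and the ratio was 0.0706 against control 1 and 0.129 against control 2. Its log2 fold change was -3.39 with a standard error of 0.63. Its unadjusted p of 0.003 ranked 1 among the 922 genes, but after Benjamini-Hochberg adjustment the limma p was 0.957. The ratio stayed under 1 in all 16 alternatives in which the spot entered, from 0.0508 to 0.488, the latter without background subtraction. All 4 values were under the detection limit, so that the size of the ratio rests on a dim spot.

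Other subunits and relatives of CamK II gave different values. The delta subunit, the form widespread outside the brain, had 73 and 55 in controls and 125 and 70 in OE-treated rats, giving a ratio of 0.865 with overlapping groups. The alpha subunit had at most 10 on any array and did not enter. CamK IV, with 52, 20, 83 and 39, had a ratio of 1.02. CamK I had 10 and 62 on the control arrays and 32 and 35 on the OE arrays, and a ratio of 0.462 with both OE values between the controls. The difference between CamK II and its relatives was not tested.

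The Jak kinases pass the signal of cytokine receptors to STAT transcription factors. JAK1, the form found in most cells, had adjusted intensities of 298 and 86 on the control arrays and 386 and 254 on the OE arrays. In scaled values it had 15.4 ± 8.29 array medians (SD, n = 2) without OE and 16.2 ± 1.84 (SD, n = 2) after OE, which makes a ratio of 1.05, or 0.763 against control 1 and 1.7 against control 2. Both scaled OE values again lay between the controls, with control 2, the array low in leukocyte markers, as the lowest. Jak2, under the detection limit, had 18, 13, 48 and 7 and a ratio of 0.950.

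Jak3, the partner of the common gamma chain in lymphocytes, had 99 and 0 on the control arrays and 194 and 135 on the OE arrays. It was the only kinase spot that passed the detection limit in both OE-treated rats but in no control. After scaling, 7.07 array medians on control 1 lay close to 8.82 and 7.94 on the OE arrays, and the distance between the groups came from control 2. No fold is given, because with undetected controls raised to the dimmest detected signal of their array the mean of the controls was 3.36 on the log2 scale and exceeded the OE mean of 3.06. The limma adjusted p was 0.957. On control 2, 6 of the 47 kinase spots were at 0, as were 197 of all 1185 spots. Of the 21 spots on the leukocyte list 7 were at 0 there, the CD3 zeta subunit among them.

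Among the other tyrosine kinases, CSK, which holds the Src family inactive, had 227 and 49 in controls and 256 and 157 in OE-treated rats. Its scaled means were 10.8 ± 7.62 array medians (SD, n = 2) without OE and 10.4 ± 1.70 (SD, n = 2) after OE, which makes a ratio of 0.964, again with control 2 as the lowest array. The ratio was 0.644 against control 1 and 1.92 against control 2. Lyn, a Src-family kinase of B cells and myeloid cells, stayed under the detection limit with 62, 10, 68 and 18 and a ratio of 0.749. SYK, which acts next to it, had 27, 11, 57 and 26 and a ratio of 1.31. In scaled values SYK was lowest on control 2 and Lyn on OE 2, with 1.06 array medians against 1.11 on control 2. FAK, the kinase of focal adhesions, had scaled values of 1.93 and 1.89 in controls and 1.77 and 1.41 in OE-treated rats, with a ratio of 0.834, so that its groups did not overlap by a narrow margin. Before scaling its values were 27 and 17 against 39 and 24, which overlap. Flk, a relative of fps/fes, had a ratio of 0.441 from adjusted intensities of at most 14, and wee1, which restrains entry into mitosis, had at most 11.

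AKT1, SGK and GSK-3 alpha were under the detection limit on all 4 arrays, and their groups overlapped. AKT2, a relative of AKT1 whose name did not meet the rule, was over the limit on all 4 arrays with a ratio of 0.375. AKT1 had 58 and 38 in controls and 110 and 65 in OE-treated rats. Scaled, these were 4.14 and 4.22 against 5.00 and 3.82 array medians, a ratio of 1.05 with a log2 fold change of 0.06 (standard error 0.58). SGK, induced by glucocorticoids, had a ratio of 1.04, and GSK-3 alpha, which AKT1 inhibits, of 0.838. The kinases related to cell division control, Clk3, which phosphorylates splicing factors, and p58/GTA, had ratios of 1.25 and 1.02. Against control 1 alone these were 0.834 and 0.669, and against control 2 alone 2.51 and 2.15. Clk3 passed the detection limit on OE 1 alone, with 128. None of the 3 proteins that bind PKC exceeded 26 on any array, and nel homolog 2, with 11 and 7 in controls and 3 and 4 in OE-treated rats, was at or under the floor on both OE arrays.

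The 2 control rats differed from each other more than the OE-treated rats did for 28 of the 43 kinase spots (65.1%), against 67.6% of all genes. Between control 1 and control 2, 19 of the 43 kinase spots (44.2%) differed over 2-fold, against 57.6% of all genes. Between OE 1 and OE 2 it was 4 spots (9.3%), against 22.5%. The direction of the difference between controls was not that of the whole array. Among the kinases 14 were over 2-fold higher on control 1 and 5 on control 2, whereas of all genes 20.5% were higher on control 1 and 37.1% on control 2. The 14 included PKC-beta, PKC-eta, JAK1, Jak3, CSK, Lyn, JNK1, Clk3 and PKI-beta, and the 5 were PKA RII-beta, CamK I, PKI-alpha, Flk and GSK-3 alpha. Control 2 held the lowest of the 4 scaled values for 18 kinase spots (41.9%), against 25.8% of all genes. No test was made of these shares.

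**Figure D3:**
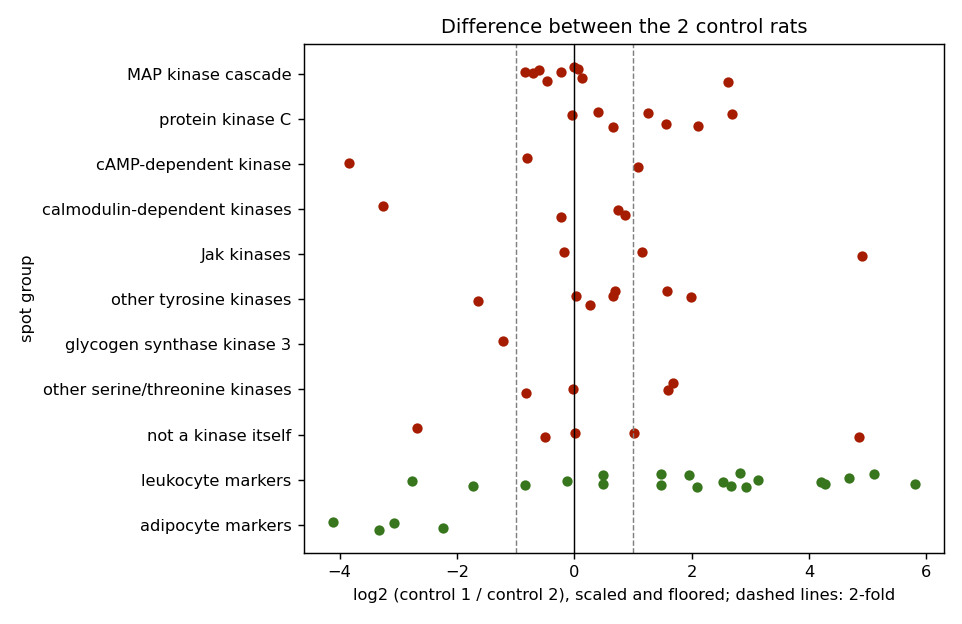
Difference between control 1 and control 2 for every kinase spot and marker that entered (x axis, log2 of control 1 over control 2, scaled and floored, so that spots higher on control 2 lie to the left), by kinase family (red) and for the leukocyte and adipocyte marker lists (green); vertical jitter has no meaning and dashed lines mark 2-fold. The adipocyte markers all lie to the left, most leukocyte markers to the right, and the kinases on both sides, with PKA RII-beta and CamK I far left and Jak3 and PKI-beta far right.

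The direction against each control alone often differed. The OE mean was higher than one control and lower than the other for 26 of the 43 spots (60.5%), against 51.4% of all genes. Without control 1, 17 kinase spots (38.6%) had a ratio over 1.5, against 27.1% of all genes, and 6 (13.6%) a ratio under 0.5, against 31%. Without control 2, 8 (17.4%) were over 1.5, against 29.6%, and 4 (8.7%) under 0.5, against 12%. Without OE 2, 12 (25.5%) were over 1.5, against 20.5%, and 5 (10.6%) under 0.5, against 16.5%. Without OE 1, 6 (14%) were over 1.5, against 19.4%, and 6 (14%) under 0.5, against 25%. The share of kinases over 1.5 was thus above that of all genes without control 1 and without OE 2. It was below that of all genes without control 2, without OE 1 and with all 4 arrays (14% against 18.9%). The 6 spots with both OE arrays below both controls were CamK II, nel homolog 2, PKC-zeta, FAK, RI-alpha and MEK2. The 7 with both above were JNK2, JNK3, PKN, Jak3, wee1, the PKA catalytic subunit and nel homolog 1, of which JNK2 and PKN alone exceeded the floor on all 4 arrays.

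**Figure D4:**
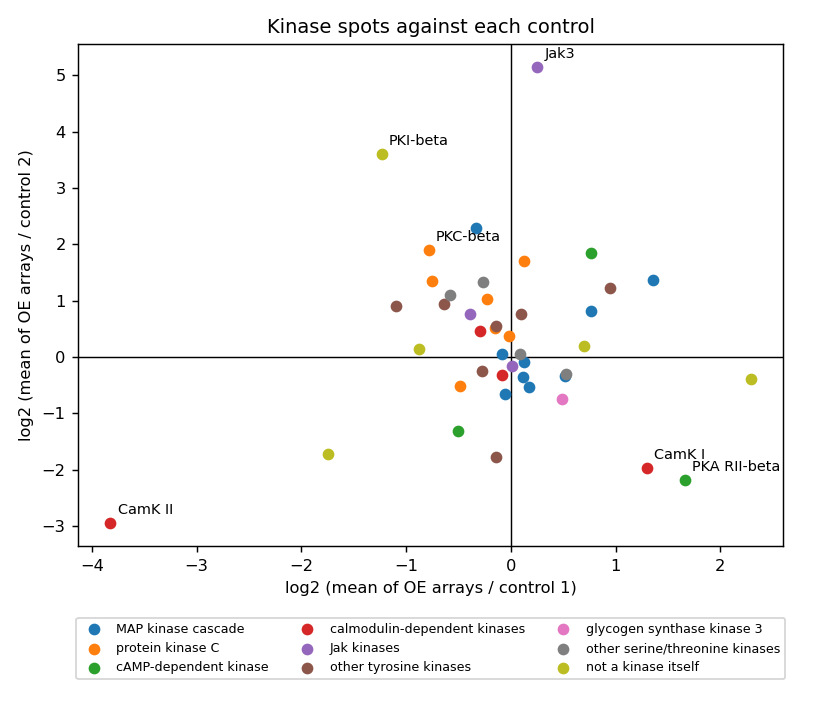
Log2 ratio of the mean of the OE arrays to control 1 (x axis) and to control 2 (y axis) for the 43 kinase spots that entered, coloured by family. Points in the upper left and lower right quadrants, 26 in all, were higher than one control and lower than the other; CamK II is alone in the far lower left, at ratios of 0.0706 and 0.129.

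Enzymes that work against or upstream of the kinases were read from the same fit. Of 24 spots for protein phosphatases, 22 entered, of which 2 had a ratio under 0.5 and 5 over 1.5, with a median log2 fold change of 0.02. Of 24 spots in the list for second messenger enzymes, which by name also took G protein alpha subunits and a VIP receptor, 23 entered, 5 with a ratio under 0.5 and 1 over 1.5, with a median of 0. The 5 were adenylyl cyclases 4, II and V, phospholipase C beta 1 and the G(I) alpha 1 subunit, all under the detection limit. Of these, adenylyl cyclases 4 and V alone had both OE values below both controls. Among all genes that entered, 18.3% were under 0.5 and 18.9% over 1.5. With limma, 0 spots on either list had an adjusted p under 0.05, and 1 phosphatase and 0 of the others had an unadjusted p under 0.05. The protein tyrosine phosphatase PTPase had adjusted intensities of 129 and 35 in controls and 577 and 356 in OE-treated rats, with a log2 fold change of 1.97 (standard error 0.70, adjusted p 0.957). The phosphatase HEPTP, a hematopoietic enzyme that acts on ERK and p38, had 155, 31, 228 and 145, again lowest on control 2. The phosphodiesterase 4B, which degrades cAMP, had 293, 81, 377 and 259 and a ratio of 1.08, while the hormone-sensitive phosphodiesterase had 23, 65, 117 and 88.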

How the data were processed

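RNA of 2 control and 2 OE-treated rats had been labelled with 33P and hybridized to nylon cDNA arrays (Atlas Rat 1.2), 1 rat per array. The authors deposited the spot, background and adjusted intensity values of Atlas Image, unscaled, where the adjusted intensity is the spot minus the background, or 0. The second array in each file, 12 columns in all, repeats another array of the series and was not used. The authors deposited a table of the series with adjusted intensity values too, whose row names carry no gene names and whose OE 1 column differed from the array file in 239 of 932 spots compared. No genome build applies.

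Arrays were scaled by their 50th percentile of adjusted intensity, following the study's methods. Values were floored at the 10th percentile of positive scaled values (0.235) and filtered, which left 922 of 1185 spots. Ratios are of arithmetic group means, with the study's cutoffs of 0.5 and 1.5. The log2 fold change compares means of log2 values. Where replicates lie far apart it can differ from the ratio, even in direction. The test on the log2 scale was that of limma 3.58.1 under R 4.3.3 (a fit on group alone, moderated by eBayes, Benjamini-Hochberg over all 922, threshold 0.05) in place of the error model across genes named in the study's methods. An exact two-sided permutation test of 2 against 2 arrays cannot go below 0.333, so no such test is given. Simulated data served to test the scripts. The number of arrays limits the precision. The p-values set the difference between groups against the spread within them, moderated over all genes that entered. With 1 array per rat, differences between rats and between hybridizations cannot be told apart in that spread.

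The spots, families, lists and tests were chosen with earlier results of these data known. Named by rule were spots over 2 times the background on any array (11), and of the others those past the cutoffs, above the floor on all 4 arrays and without overlap of the groups (3, up to 5 each way), with Jak3 and CamK II named in any case. All others were named after their values were seen, and 1 spot is counted but not reported here. In the family rule, the words associated and activator were not applied to p58/GTA and the MEK spots, which are kinases. Alternatives were other scalings, floors, filters and background corrections, the series table, leaving out each array, geometric means, a replicate block and an intensity trend.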

Additional observations from a re-analysis of the deposited data

How the results depend on the processing

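limma called 0 kinase spots and 0 genes at an adjusted p under 0.05 in every alternative with a test, the smallest adjusted p being 0.171, without control 1, where the lone control was assumed to vary like the OE group. The median log2 fold change of the kinases, 0.07, was -0.65 with scaling to the 9 housekeeping spots and 0.85 without scaling, and from -0.17 to 0.39 on leaving out an array. The scalings moved the median of all genes with it (to -0.75 and 0.74), and the kinases lay 0.10 to 0.13 above it under the 5 other scalings. The difference was 0.54 without control 1, 0.31 without OE 2, -0.21 without control 2 and -0.03 without OE 1. Over the alternatives that leave out an array or change the processing, the share of all genes ran from 0.88% to 45.2% under 0.5 and from 5.14% to 50.7% over 1.5. The count of 5 kinase spots under 0.5 was 12 with housekeeping scaling, 2 with the 75th percentile, with scaling to the detected genes and without scaling, 3 with quantile normalization, the floor at the 25th percentile and geometric means, 1 without background subtraction and with normexp (offset 50), 0 among spots over the detection limit in a group, and from 4 to 6 on leaving out an array. The count of 6 over 1.5 was 1 with housekeeping scaling, without background subtraction, with normexp and among detected spots, 2 with the filter on all 4 arrays, 28 without scaling, and from 6 to 17 on leaving out an array, with 17 (38.6%, all genes 27.1%) without control 1 and 12 (25.5%, all genes 20.5%) without OE 2. The ratio of PKA RII-beta, 0.411, turned to 3.16 without control 2 (0.22 without control 1), and that of PKN, 1.64, to 0.877 with housekeeping scaling. Over the 14 named spots, 184 of 229 alternative ratios moved by less than the spread between replicates. That count says little on stability. A change of filter cannot alter the ratio of a spot, so these alternatives are in the 184 by design. The margin is also wide where replicates differ: PKA RII-beta at 0.884 without scaling still counted as within it. Same-numbered arrays did not deviate together (correlation across genes 0.0495), and the replicate block gave a median of 0.07 and 0 calls, with 1 kinase spot at an unadjusted p under 0.05 in place of 2. The table of the series gave 0 genes. Its rows could not be named, so that no value for the kinases came from it. Signal over background limits most values, since 36 of the 47 spots never reached 2 times the background.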

Other observations

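Several kinases outside the naming rule were read from the same fit, chosen after their values were seen. AKT2, the insulin-responsive relative of AKT1, had adjusted intensities of 217 and 255 on the control arrays and 197 and 127 on the OE arrays, all over the detection limit, and a ratio of 0.375 with both OE arrays below both controls (log2 fold change -1.36, standard error 0.64, limma adjusted p 0.957). ERK1, the close relative of ERK2, had 235, 777, 583 and 591 in the same order, also over the limit on all 4 arrays, and a ratio of 0.594 with both scaled OE values between the controls. Casein kinase I delta had 217, 157, 441 and 364 with a ratio of 1.26, and the spot named Mak, a kinase of male germ cells, had 567, 336, 1178 and 917 with a ratio of 1.38.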
